A study of Homo sapiens with 8 samples.

Results

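Transcripts of 10 genes of the nuclear lamina and inner nuclear membrane were followed when the kinase VRK1 was knocked down in 2 human cancer cell lines. The genes were the lamins LMNA, LMNB1 and LMNB2, the protease ZMPSTE24, the LEM-domain proteins EMD, TMPO, LEMD2 and LEMD3, the receptor LBR, and BANF1. They were taken by current or former gene symbol in the platform annotation, which gave 15 of the 24526 probes of the array. Of these probes, 13 passed the filter on dim probes, at least 1 for each of the 10 genes, so that every one of them was among the 9451 genes tested. ZMPSTE24 was chosen by its lower signal with the VRK1 siRNA in both lines of these data, so its change with siVRK1 is given as a description with no test. The other 9 were included for their place in the lamina or their binding to BANF1, and they were tested in the fit across all genes.

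The study used 8 Illumina bead arrays in 4 groups of 2. MDA-MB-231 breast adenocarcinoma cells and HT1080 fibrosarcoma cells received either a scrambled siRNA (control) or siVRK1 #308. In all groups the cells were grown for 24 h in medium with 10% serum, then exposed to the siRNA and its lipid carrier, and RNA was taken 42 h later. All siVRK1 arrays carried the same siRNA, so effects of its sequence and of lower VRK1 cannot be told apart. Nothing in the labels tells whether the 2 replicates of a group were grown apart, so p-values here rest on the spread among arrays, which may be technical.

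The lamina is a mesh of A-type lamins (lamins A and C, both from LMNA) and B-type lamins (LMNB1 and LMNB2) under the inner nuclear membrane. Lamin A is made as a farnesylated precursor that ZMPSTE24 cuts to its mature form. BANF1 (barrier-to-autointegration factor) binds DNA, lamin A and the LEM domain carried by emerin (EMD), LAP2 (TMPO), LEMD2 and MAN1 (LEMD3), and so joins chromatin to the envelope. VRK1 phosphorylates BANF1, which loosens its hold on DNA and LEM proteins as the envelope breaks down at mitosis. These are events of proteins, while the arrays measured mRNA.

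The regions upstream of ZMPSTE24 and LMNB1 are shown because these were the lowest of the 10 genes after siVRK1 in both lines. The sequences are those of RefSeq on GRCh38.p14, which gave upstream windows for all 10 genes, and each runs 5′ to 3′ over the 250 bases before a transcript start. LMNB1 has 2 starts in that table and ZMPSTE24 has 1.
ZMPSTE24 (chr1:40257986-40258235, + strand): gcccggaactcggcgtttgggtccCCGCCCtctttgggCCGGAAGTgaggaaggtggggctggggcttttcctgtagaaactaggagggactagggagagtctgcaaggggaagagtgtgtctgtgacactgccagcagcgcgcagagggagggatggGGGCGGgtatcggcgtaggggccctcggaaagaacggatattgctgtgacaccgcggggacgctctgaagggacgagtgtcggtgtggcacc
LMNB1 upstream start (chr5:126776373-126776622, + strand): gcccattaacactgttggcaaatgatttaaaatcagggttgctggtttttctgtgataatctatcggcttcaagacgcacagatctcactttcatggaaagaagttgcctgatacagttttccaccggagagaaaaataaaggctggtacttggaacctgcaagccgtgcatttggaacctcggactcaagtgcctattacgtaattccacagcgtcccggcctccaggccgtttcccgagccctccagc
LMNB1 downstream start (chr5:126776886-126777135, + strand): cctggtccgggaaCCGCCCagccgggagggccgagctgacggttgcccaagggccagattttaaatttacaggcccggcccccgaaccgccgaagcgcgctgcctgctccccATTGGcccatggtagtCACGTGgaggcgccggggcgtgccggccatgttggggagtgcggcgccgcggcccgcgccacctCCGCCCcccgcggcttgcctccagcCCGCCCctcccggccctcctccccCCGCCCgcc
Capitals mark matches, on either strand, to any of 8 motifs that were searched: the CCAAT box (CCAAT), the GC box (GGGCGG), an ETS site (CCGGAAGT), the CHR element of cell cycle promoters (TTTGAA), an E-box (CACGTG), a CRE (TGACGTCA), an AP-1 site (TGANTCA) and an E2F site (TTCCCGC). The ZMPSTE24 window held 2 GC boxes and an ETS site that began 212 bases before the start. The downstream LMNB1 window held 4 GC boxes, a CCAAT box beginning 138 bases and an E-box beginning 122 bases before the start, and the upstream window held none of the 8. No matches overlapped in these windows. Over 35116 windows of the same length upstream of human genes, a GC box was found in 42.6%, a CCAAT box in 32.0%, an E-box in 6.34% and the ETS site in 3.42%. The GC box was the one motif found for both genes. The CHR element, CRE, AP-1 and E2F letters, found in 13.3%, 1.65%, 6.57% and 5.52% of windows, were not in the windows shown. These are matches of letters, and no binding was measured.

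Values are log2 intensities as deposited, and a change of 1 means a 2-fold difference in signal. The lowest value was 5.37 log2 and how background was handled is not given, so changes of dim probes may be smaller than the true ones. The level of a probe says nothing against that of another gene. A probe was kept when its highest group mean reached 6.08 log2, the median of that value over all probes. Each gene is represented by its brightest kept probe, and genes were compared with limma, a linear model that shares information on the spread across genes, with Benjamini-Hochberg adjustment across the 9451 genes and calls at an adjusted p under 0.05. Replicate arrays correlated with r from 0.991 to 0.995 over probes. Replicates differed with an SD of 0.239 to 0.269 log2 for the MDA-MB-231 groups and of 0.175 to 0.181 for the HT1080 groups. The mesenchymal markers VIM, CD44, CAV1, MSN and AXL lay above the filter level in every group, and the remaining one of those 6, FN1, lay below it on every array (5.66 to 5.91). Of 10 epithelial markers, 6 were above it in MDA-MB-231 controls (KRT7, KRT8, KRT18, KRT19, ERBB2 and JUP). In that line 7 were above it with siVRK1 (CDH1 added), and 3 in both HT1080 groups (KRT8, KRT18 and ERBB2). EPCAM was below it throughout. CDH1 lay near the filter level in MDA-MB-231, at 5.99 and 5.91 against 6.17 and 6.14 with siVRK1 (change 0.20 log2, limma adjusted p = 0.470). KRT7, a keratin, was called higher with siVRK1 in MDA-MB-231 (0.77 log2, limma adjusted p = 0.0172). It was the 1 call among 7 tested epithelial markers, where 0.995% of all genes were called. Of the 7, 5 were above 0, and KRT18 (-0.30) and KRT19 (-0.07) were below. Of 6 fibroblast markers, 3 were above the filter level in MDA-MB-231 controls (COL1A1, COL1A2 and PDGFRB). In that line 2 were above it with siVRK1 (COL1A2 and PDGFRB), and 0 in HT1080. COL1A1 read 6.1 and 6.06 in MDA-MB-231 against 5.99 and 5.91 with siVRK1 (change -0.13 log2, limma adjusted p = 0.681), close to that level. Leukocyte markers were 3 of 5 above it in MDA-MB-231 (CD68, LAPTM5 and CD14) and 2 of 5 in HT1080, with a mean level of 7.36 to 7.39 on MDA-MB-231 control arrays, 7.09 to 7.16 on siVRK1 arrays, and 6.77 to 6.93 on all HT1080 arrays. PTPRC, the defining leukocyte marker, did not reach the filter level in any group. Their part in the results below was not tested. VRK1 itself read 7.93 and 7.61 on the MDA-MB-231 control arrays and 6.23 and 6.74 with siVRK1, and 7.84 and 7.88 against 6.57 and 6.51 in HT1080, a change of -1.28 (adjusted p = 0.0117) and -1.32 log2 (adjusted p = 0.0240).

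Most of the genes other than ZMPSTE24 stayed near their control level. ZMPSTE24 moved most, but it was chosen by that change, so its rank is no result. Among the 9 genes other than ZMPSTE24, limma called 0 in MDA-MB-231 (0.995% of all genes were called there), 0 in HT1080 (0.307% of all genes) and 0 on the average of the lines (2.54% of all genes). At an unadjusted p under 0.05 the count was 1 of 9 in MDA-MB-231 and 1 of 9 on the average, LMNB1 in each case, and 0 of 9 in HT1080, against 13.2%, 15.6% and 10.4% of all genes. The median change of the 9 was -0.05 log2 for MDA-MB-231 and -0.06 for HT1080, beside 0.003 and 0.002 over all genes. In MDA-MB-231, 5 were lower and 4 higher, between -0.49 and 0.16. In HT1080, 7 were lower and 2 higher, between -0.35 and 0.05.

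**Figure D1:**
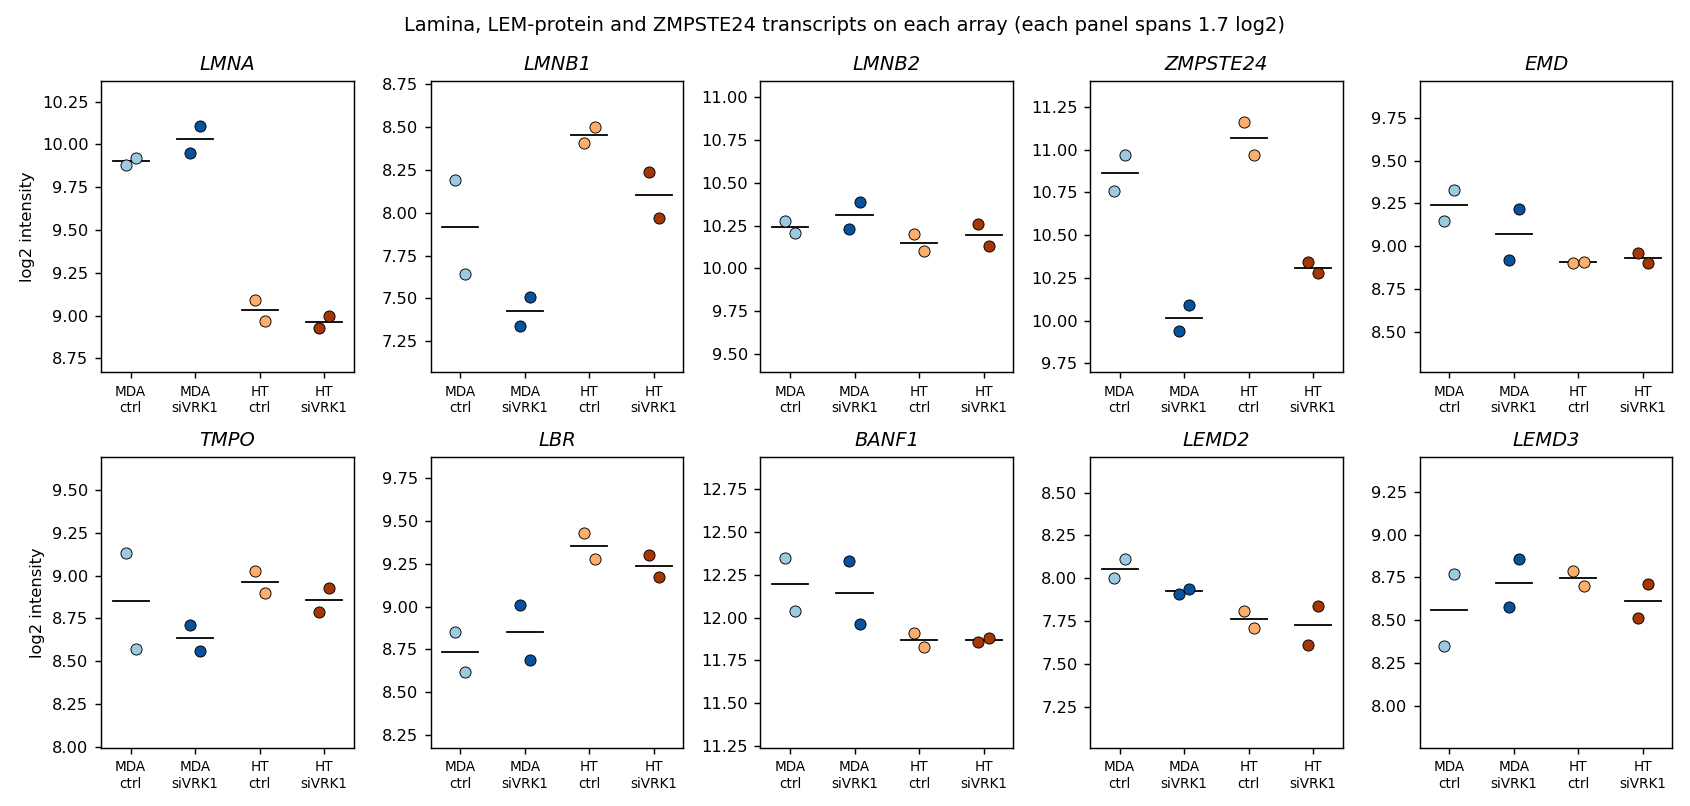
Log2 intensity of the representative probe of each gene on the 8 arrays (y axis), with the 4 groups on the x axis (ctrl, scrambled siRNA), points for single arrays and bars for group means. ZMPSTE24 and LMNB1 lie lower on the siVRK1 arrays of both lines, LMNA separates the lines, and the BANF1 arrays overlap between control and siVRK1 within each line.

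ZMPSTE24 encodes a zinc metalloprotease of the endoplasmic reticulum and inner nuclear membrane. Its probe read 10.76 and 10.97 log2 on the MDA-MB-231 control arrays and 9.94 and 10.09 after siVRK1. The HT1080 values were 11.16 and 10.97 with control siRNA and 10.34 and 10.28 with siVRK1. The groups did not overlap in either line, and all 4 siVRK1 arrays lay below all 4 control arrays, whichever the line. Of all genes, 18.8% were lower without overlap in MDA-MB-231, 21.8% in HT1080 and 6.77% in both lines. The change of ZMPSTE24 was -0.85 log2 (SE 0.12) in MDA-MB-231, or 55.4% of control, and -0.76 (SE 0.12) in HT1080, or 59.1% of control. These values chose the gene and are not evidence beyond that choice. The lines differed in this change by 0.09 log2, with a 95% interval of -0.29 to 0.48, so a moderate difference between them in either direction was not detectable here. Leaving out any 1 array kept the change between -0.96 and -0.75 in MDA-MB-231 and between -0.85 and -0.66 in HT1080. It has 1 probe on the array.

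Over the 8 arrays, the genes whose deviations from the control mean of their own line lay closest to those of ZMPSTE24 were PRRG1, with a root mean square difference of 0.109 log2, CDKN2D, an inhibitor of CDK4 and CDK6 (0.130), and NEK2, a centrosomal kinase (0.138). PRRG1 changed by -0.78 in MDA-MB-231 and -0.76 in HT1080. CDKN2D changed by -0.73 and -0.93, and NEK2 by -0.76 and -0.75. The arrays are the same for all 4 genes, so this likeness is a description.

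LMNB1, which encodes lamin B1, was the lowest of the 9 tested genes in both lines. It read 8.19 and 7.64 log2 on the MDA-MB-231 control arrays and 7.34 and 7.51 with siVRK1. In HT1080 it read 8.41 and 8.50 with control siRNA and 8.24 and 7.97 with siVRK1. The siVRK1 arrays lay below the control arrays in each line, which was so for 6.77% of all genes (18.8% in MDA-MB-231 and 21.8% in HT1080 taken alone). By limma it changed by -0.49 log2 (SE 0.17, adjusted p = 0.244) in MDA-MB-231, -0.35 (SE 0.17, adjusted p = 0.551) in HT1080 and -0.42 (SE 0.12, adjusted p = 0.120) on the average, which is 74.9% of the control signal. None of these passed the threshold. The 2 control arrays of MDA-MB-231 differed more (SD 0.39) than those of HT1080 (SD 0.07). Without MDA-MB-231 control 1 the change was -0.21, and without control 2 it was -0.76 (adjusted p = 0.0508). On the average it was -0.28 without control 1 and -0.55 without control 2, where it passed (adjusted p = 0.0195). The interval of the difference between the lines ran from -0.41 to 0.68 log2.

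Genes of mitosis, from a list described further on, were also lower with siVRK1. The mean level of 34 genes of G2/M and mitosis was 9.35 and 9.09 log2 on the MDA-MB-231 control arrays and 8.74 and 8.89 with siVRK1. In HT1080 it was 8.95 on both control arrays, and 8.55 and 8.57 with siVRK1. As for LMNB1, MDA-MB-231 control 1 was the highest array of its line and siVRK1 1 the lowest. The genes whose deviations lay closest to those of LMNB1 were PSRC1, which encodes a spindle protein (root mean square difference 0.078 log2, changes of -0.46 in MDA-MB-231 and -0.43 in HT1080), PTTG1, the securin gene (0.086, -0.58 and -0.36), and STAMBPL1, a deubiquitinase gene (0.091, -0.42 and -0.30). The part of the mitotic genes in the LMNB1 values was not tested.

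LMNA and LMNB2 were at similar levels with and without siVRK1. LMNA read 9.88 and 9.92 on the MDA-MB-231 control arrays and 9.95 and 10.11 with siVRK1, and in HT1080 9.09 and 8.97 against 8.93 and 9.0. The siVRK1 arrays lay just above the controls in MDA-MB-231, as they did for 20.4% of all genes, and the groups overlapped in HT1080. The change was 0.13 log2 (95% interval -0.11 to 0.37, adjusted p = 0.707) in MDA-MB-231 and -0.06 (-0.30 to 0.18, adjusted p = 0.920) in HT1080. A second LMNA probe gave 0.06 and -0.13. Both LMNA probes are assigned to the lamin C transcript in the platform annotation, and whether they also report lamin A was not tested. LMNB2, the gene of lamin B2, read 10.21 to 10.28 with control siRNA and 10.23 to 10.39 with siVRK1 in MDA-MB-231, and 10.10 to 10.20 against 10.13 to 10.26 in HT1080. Its groups overlapped in both lines, with changes of 0.06 (95% interval -0.18 to 0.31) and 0.05 (-0.20 to 0.29). A halved or doubled level of either transcript lies outside these intervals.

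The difference between the 2 lamin transcripts is a description, with no test. Taking log2 LMNA minus log2 LMNB1 and setting the MDA-MB-231 control mean to 0, the control arrays of that line stood at -0.30 and 0.30 and the siVRK1 arrays at 0.62 and 0.61. The HT1080 control arrays stood at -1.31 and -1.52 and the siVRK1 arrays at -1.30 and -0.96. The siVRK1 arrays were higher in each line, by little in HT1080, and the lines lay far further apart than siVRK1 moved either.

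The LEM proteins did not pass the test in either line. EMD, the emerin gene, read 9.15 and 9.33 log2 on the MDA-MB-231 control arrays against 8.92 and 9.22 with siVRK1, and 8.90 to 8.91 against 8.90 to 8.96 in HT1080. Its changes were -0.17 (95% interval -0.45 to 0.11) and 0.03 (-0.26 to 0.31). TMPO, which encodes the LAP2 proteins, read 9.13 and 8.57 against 8.71 and 8.56 in MDA-MB-231 and 9.03 and 8.90 against 8.79 and 8.93 in HT1080. The groups overlapped in both lines. Its change in MDA-MB-231 was -0.22 (SE 0.17, adjusted p = 0.661), and 0.06 without control 1, which stood above the other 3 arrays of the line. In HT1080 the change was -0.10 (adjusted p = 0.912). Of the other TMPO probes, one assigned to the same transcript, that of LAP2 alpha, read 5.93 to 6.23 over all arrays, around the filter level. The probe for the LAP2 beta transcript read 5.64 to 5.76, below it, so the arrays say little about that form.

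LEMD2, whose product helps to recruit membrane-sealing ESCRT proteins to the reforming envelope, read 8.0 and 8.11 with control siRNA and 7.91 and 7.94 with siVRK1 in MDA-MB-231, without overlap. Of all genes, 18.8% were lower without overlap in that comparison. In HT1080 LEMD2 read 7.81 and 7.71 against 7.61 and 7.84, with overlap. The changes were -0.13 (adjusted p = 0.724) and -0.04 (adjusted p = 0.960). LEMD3 encodes MAN1, which also binds SMAD proteins of the TGF-beta pathway. It read 8.35 and 8.77 against 8.58 and 8.86 in MDA-MB-231, a change of 0.16 (95% interval -0.19 to 0.51), and 8.79 and 8.70 against 8.51 and 8.71 in HT1080, a change of -0.14 (-0.49 to 0.21). Both pairs of groups overlapped.

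LBR, the lamin B receptor, which tethers heterochromatin and is also a sterol reductase, read 8.85 and 8.62 with control siRNA and 9.01 and 8.69 with siVRK1 in MDA-MB-231. In HT1080 it read 9.43 and 9.28 against 9.30 and 9.17. The groups overlapped in both, and the changes were 0.12 (adjusted p = 0.809) and -0.12 (adjusted p = 0.864). A second, dimmer LBR probe at 6.19 to 6.94 gave -0.11 and 0.00, and the remaining LBR probe, assigned to another transcript, lay below the filter level at 5.62 to 5.82.

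BANF1, the substrate of VRK1 among these genes, showed no detectable change of its own mRNA. It read 12.35 and 12.04 log2 on the MDA-MB-231 control arrays and 12.33 and 11.96 with siVRK1. In HT1080 it read 11.91 and 11.83 against 11.86 and 11.88. The changes were -0.05 (95% interval -0.38 to 0.28, adjusted p = 0.938) and 0.00 (-0.33 to 0.33, adjusted p = 1.0). A change of the size seen for VRK1 lies outside both intervals. Processed pseudogenes of BANF1 are known, and whether its probe separates them was not tested.

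**Figure D2:**
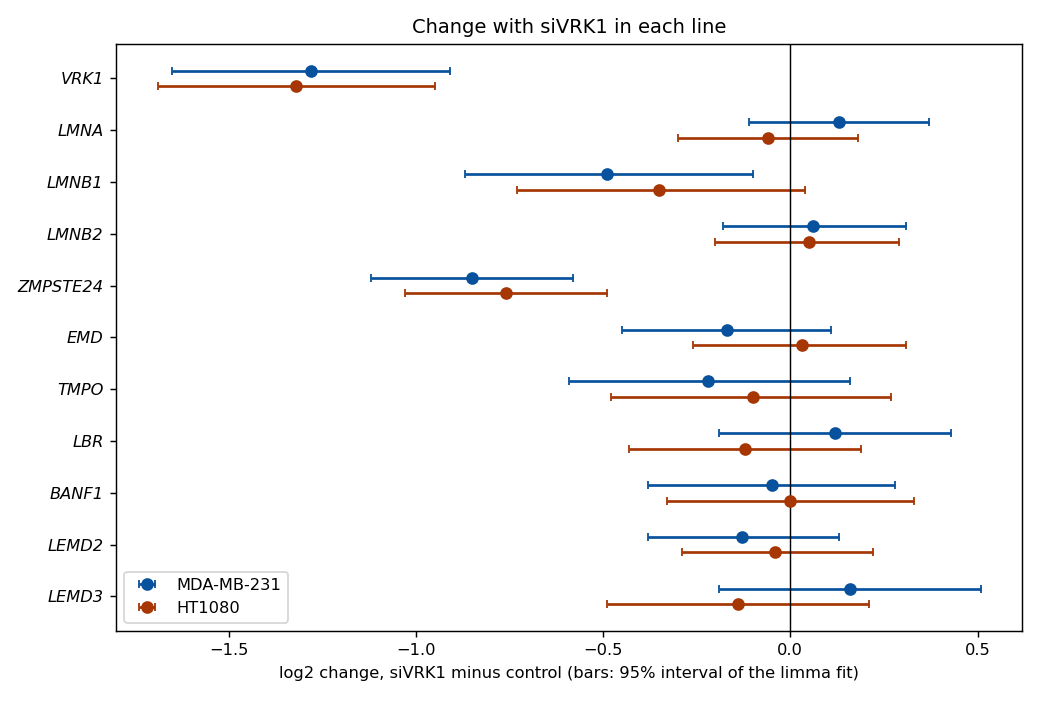
Log2 change with siVRK1 (x axis) for VRK1 and the 10 genes (y axis), as points for MDA-MB-231 and HT1080 with 95% intervals of the limma fit. VRK1 lies clear of 0 in both lines. ZMPSTE24 was chosen by these changes, so its intervals only describe the spread and are no test against 0. LMNB1 lies to the left in both lines with an interval that crosses 0 in HT1080, and the intervals of the other tested genes cross 0.

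None of the 9 tested genes differed between the lines in its response to siVRK1 (limma, 0 of 9 called and 0 of 9 at an unadjusted p under 0.05). In this comparison 0 of all 9451 genes (0%) were called, and 6.16% had an unadjusted p under 0.05. The differences, HT1080 minus MDA-MB-231, ran from -0.30 to 0.20 log2 among the 9. LEMD3 stood lowest and EMD highest. With SE of 0.15 to 0.24 log2, differences of this size were not detectable.

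With siVRK1, the wider envelope machinery gave no call in either line except VRK1 itself, the target of the siRNA. The counts here and for the lists that follow stand beside 0.995% of all genes called in MDA-MB-231 and 0.307% in HT1080. At these shares, lists of this size would hold few calls or none. Of 7 tested genes of the LINC complex and its torsin partners, which couple the lamina to the cytoskeleton, 0 were called in either line, and the median change was 0.22 log2 (MDA-MB-231) and -0.09 (HT1080). TOR1AIP1 (LAP1, 0.33), SUN1 (0.25) and SUN2 (0.22) were among the 6 of 7 above 0 in MDA-MB-231, and in HT1080 SUN1 read -0.04 and SUN2 -0.22, with 6 of 7 below 0. TOR1A was lowest in MDA-MB-231 (-0.01) and TOR1B highest in HT1080 (0.03). Of 7 genes listed as other inner nuclear membrane proteins 0 were called. That list takes in MATR3 and also NDC1, a pore membrane protein counted among the nucleoporins as well. TMEM43 was the highest in MDA-MB-231 (0.21) and TMEM201 in HT1080 (0.14). NEMP1 was the lowest in both lines, with 8.38 and 8.18 log2 against 7.73 and 7.85 in MDA-MB-231 and 8.93 and 8.99 against 8.75 and 8.32 in HT1080. Its change was -0.49 and -0.42, and on the average -0.46 (SE 0.10, adjusted p = 0.0513), just short of the threshold.

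The other enzymes of the prelamin A tail were not called. Of 5 tested genes of prenylation and CAAX processing 0 were called in either line. FNTA and FNTB, the farnesyltransferase subunits, read 0.07 and 0.05 in MDA-MB-231 and 0.21 and 0.00 in HT1080. RCE1, a protease that can also trim farnesylated proteins, read -0.12 and -0.16, and ICMT, which methylates their end, -0.10 and -0.02. PGGT1B, a prenyltransferase subunit, was lowest in HT1080 (-0.20). Among 7 tested kinases and phosphatases of BANF1 only VRK1 was called. PPP4R1, a regulatory subunit of phosphatase PP4, was highest in MDA-MB-231 (0.28). VRK2, the related kinase, read 0.04 and 0.25, the highest in HT1080, and PPP2R1A, the scaffold of phosphatase PP2A, 0.24 and 0.19.

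None of 12 ESCRT-III genes and none of 27 nucleoporins was called in either line, with medians of 0.08 and 0.02 log2 for MDA-MB-231 and 0.04 and -0.02 for HT1080. NUP37, of the outer ring of the pore, was lowest in MDA-MB-231 at -0.52 (SE 0.10, adjusted p = 0.0532) and read 0.01 in HT1080, and the difference between the lines was 0.54 (adjusted p = 0.568). NUP35 was highest at 0.30 in MDA-MB-231 and read 0.34 in HT1080, where NUP214 was highest (0.38) and NUP54 lowest (-0.26). Of the ESCRT-III genes, CHMP1B was highest (0.22) and CHMP4A lowest (-0.28) in MDA-MB-231, and CHMP2A highest (0.23) and SPAST lowest (-0.34) in HT1080. Of 9 chromatin proteins linked to the lamina 0 were called. CBX5, which encodes heterochromatin protein HP1 alpha, read -0.36 and -0.28, and CBX1 (HP1 beta), the lowest in MDA-MB-231 and the highest in HT1080, -0.39 and 0.14. BAZ1A was the highest in MDA-MB-231 (0.20). The G2/M and mitosis genes had a median of -0.41 in MDA-MB-231 with 33 of 34 negative and -0.39 in HT1080 with 33 of 34 negative, beside 49.3% and 49.4% of all genes. In MDA-MB-231 2 were called (NEK2, -0.76, and CDC20, -0.64) and in HT1080 1 (NEK2, -0.75), all lower, where 0.995% and 0.307% of all genes were called. On the average of the lines 14 of 34 were called lower, where 2.54% of all genes were called. These were NEK2 (-0.76, adjusted p = 0.00271), AURKA, CCNB2, CDC20, BIRC5, TTK, KIF11, KIF2C, KIF20A, KIF23, HMMR, PTTG1, CDCA8 and CKAP2. The highest of the list was MKI67 in MDA-MB-231 (0.01) and CENPE in HT1080 (0.04). Of 21 genes of G1/S and DNA replication 18 were negative in each line, with medians of -0.17 and -0.14, and PCNA, the sliding clamp of DNA polymerase, was the 1 call, in MDA-MB-231 (-0.98). On the average PCNA, MCM10 and GINS2 were called lower. CCNE1 was the highest in both lines (0.25 and 0.46), and GINS2 the lowest in HT1080 (-0.75).

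**Figure D3:**
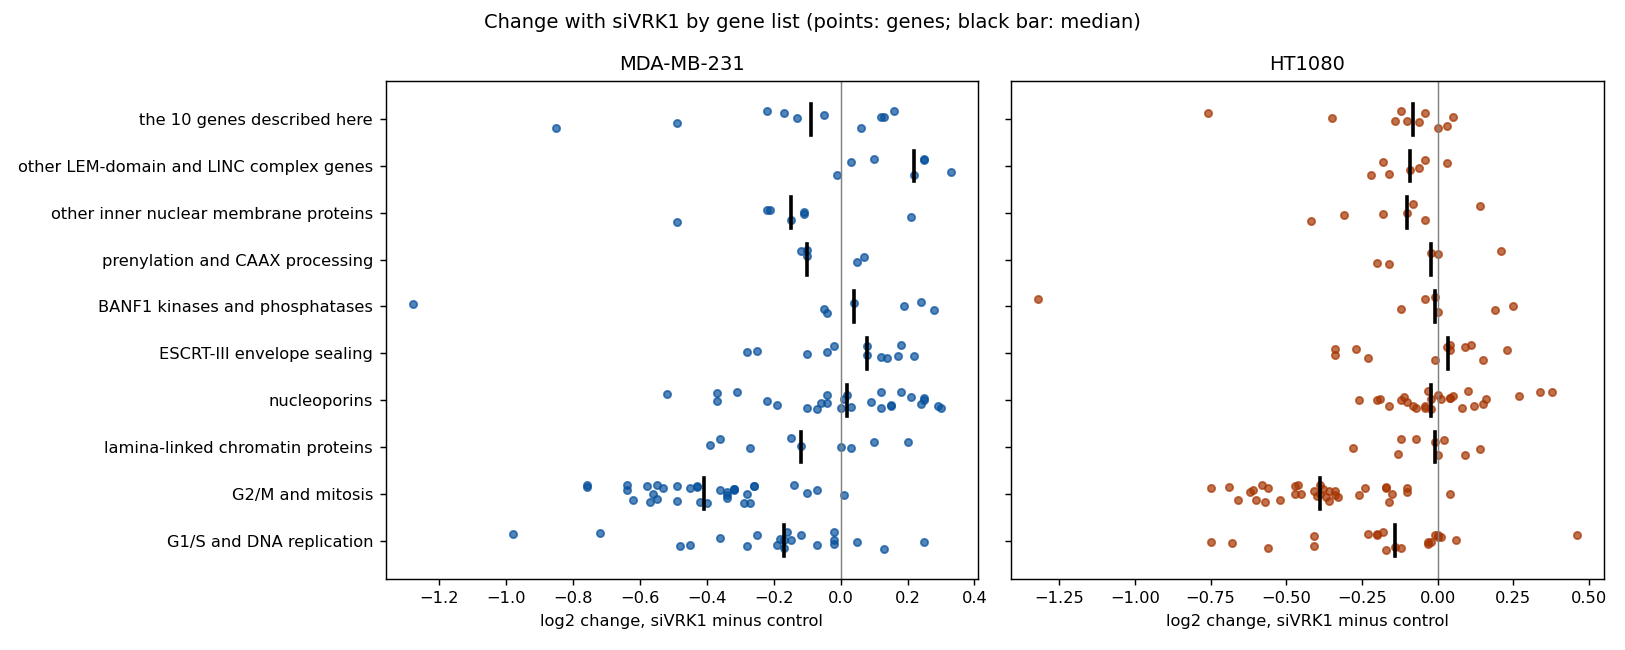
Log2 change with siVRK1 (x axis) of each tested gene of 9 lists and of the 10 genes described (y axis), in MDA-MB-231 and HT1080, with points for genes and black bars for medians. The envelope lists centre within 0.22 log2 of 0, and the G2/M genes centre at -0.41 and -0.39. ZMPSTE24, chosen by this change, is the leftmost of the 10 genes.

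The control arrays compare the lamina of the 2 lines without VRK1 knockdown. HT1080 had lower LMNA and EMD and higher LMNB1 and LBR, so that limma called 4 of the 10 genes, where 53.7% of all genes were called, 26.2% higher and 27.5% lower. The share is no larger than for genes at large. The arrays did not overlap for 5 of the 10 in the lower direction (38.7% of all genes) and 2 in the higher (38.7%). The median of the 10 was 0.01 log2, between -0.87 and 0.62.

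LMNA was 0.87 log2 lower in HT1080 (change -0.87, SE 0.11, adjusted p = 9.61e-05), at 54.5% of the MDA-MB-231 signal, with 9.09 and 8.97 against 9.88 and 9.92. Its second probe gave -0.74 (SE 0.11, adjusted p = 0.000344 over all kept probes, of which 53% were called), with 8.85 and 8.75 against 9.61 and 9.47. With siVRK1 the lines also stood apart, at 8.93 and 9.0 against 9.95 and 10.11, which was not tested. Without each array in turn the difference between the control lines lay between -0.93 and -0.82, and it passed the threshold each time.

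LMNB1 went the other way, by 0.54 log2 (SE 0.17, adjusted p = 0.0235), and the call depended on single arrays. Leaving out MDA-MB-231 control 2 gave 0.27 (adjusted p = 0.176), leaving out control 1 gave 0.81 (adjusted p = 0.00179), and the call was also lost without HT1080 control 1 (adjusted p = 0.0736) or control 2 (adjusted p = 0.119). Its order over the groups was HT1080 control (8.45, SD 0.07, n = 2), HT1080 siVRK1 (8.11, SD 0.19), MDA-MB-231 control (7.91, SD 0.39) and MDA-MB-231 siVRK1 (7.43, SD 0.12), of which HT1080 siVRK1 and MDA-MB-231 control overlapped. Most G2/M genes had the opposite order between the control lines, with a median of -0.31 log2 in HT1080 and 26 of 34 below 0. Of the 34, 16 were called lower, where 27.5% of all genes were called lower. HMMR was called higher (2.18 log2), and 8 of 34 were above 0. The part of these genes in the LMNB1 difference was not tested. LMNB2 was not called between the control lines (change -0.10 log2, 95% interval -0.34 to 0.15). Its HT1080 control arrays, at 10.2 and 10.1, lay just below the 10.28 and 10.21 of MDA-MB-231. Of all genes, 38.7% were lower without overlap in that comparison.

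LBR was higher in HT1080 by 0.62 log2 (SE 0.14, adjusted p = 0.00393), with 9.43 and 9.28 against 8.85 and 8.62, and its second probe was higher by 0.43 (adjusted p = 0.0151 over all kept probes). The call held without each array, with differences from 0.51 to 0.74. EMD was lower, at 8.90 and 8.91 against 9.15 and 9.33 (change -0.34, SE 0.13, adjusted p = 0.0442). The call of EMD was lost without MDA-MB-231 control 2 or without any 1 of the 4 HT1080 arrays, with adjusted p up to 0.202. LEMD2 (-0.29, adjusted p = 0.0535) and BANF1 (-0.32, adjusted p = 0.0859) were below their MDA-MB-231 arrays without overlap and did not pass. LEMD2 was called without HT1080 siVRK1 1 or 2, with an adjusted p of 0.0499 at the lowest. ZMPSTE24, tested here since this comparison did not choose it, was at 0.20 (95% interval -0.07 to 0.47, adjusted p = 0.188). LEMD3 was at 0.19 and TMPO at 0.11, with overlapping arrays, and TMPO was called without MDA-MB-231 control 1 (0.39, adjusted p = 0.0395). BANF1 was called without MDA-MB-231 control 2 (-0.48, adjusted p = 0.0354). The siVRK1 and control-line comparisons use the same control arrays, so they are not independent.

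**Figure D4:**
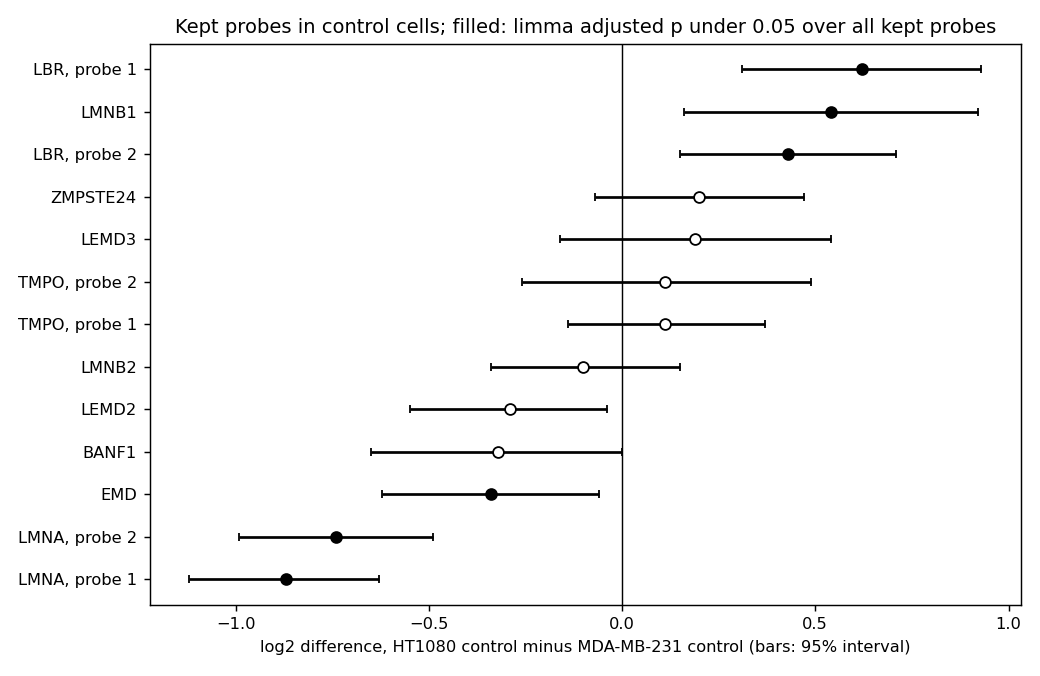
Log2 difference between HT1080 and MDA-MB-231 control arrays (x axis) for the 13 kept probes of the 10 genes (y axis), with 95% intervals and filled points for an adjusted p under 0.05 over all kept probes. Both LMNA probes lie left of 0, both LBR probes and LMNB1 lie right of it, and LMNB2 and both TMPO probes lie within 0.11 of it.

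Of the surrounding genes, TMEM201, which encodes an inner nuclear membrane protein of migrating and dividing cells, was higher in HT1080 controls by 1.31 log2 (SE 0.12, adjusted p = 1.15e-05), and NEMP1 by 0.68 (SE 0.15, adjusted p = 0.00317). CBX5 was higher by 1.17 (SE 0.15, adjusted p = 0.000116) and SUN1 by 0.53 (SE 0.11, adjusted p = 0.00268), while SUN2 was lower (-0.50, SE 0.12, adjusted p = 0.00657). The counts that follow stand beside 26.2% of all genes called higher and 27.5% called lower. Of the inner nuclear membrane list 3 of 7 were called higher (NDC1, a pore membrane protein, at 1.34, TMEM201 and NEMP1) and 1 lower (TM7SF2, -0.70). Of the LINC list 2 of 7 were higher (TOR1AIP2, 0.55, and SUN1) and 1 lower (SUN2). Of the ESCRT-III list 1 of 12 was higher (SPAST, 0.56) and 4 were lower (CHMP3 at -1.73, CHMP2A, CHMP4A and CHMP4B). Of the chromatin list 3 of 9 were higher and 2 lower, with CBX5 the highest and SUV39H1, a histone H3K9 methyltransferase, the lowest (-1.58). CBX1, CBX3 and TRIM28 were the other calls of that list. Of the CAAX list 2 of 5 were higher (RCE1, 0.49, and PGGT1B, 0.37) and 0 lower, and of the kinases and phosphatases of BANF1 2 of 7 were higher and 2 lower, from VRK2 at -0.48 to PPP4R1 at 0.93. Of the nucleoporins 8 of 27 were higher and 4 lower, from NUP85 at -0.55 to NDC1, which is also in the inner nuclear membrane list.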

How the data were processed

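RNA from 8 samples was measured on Illumina bead arrays, 2 arrays for each of 4 groups. The deposited log2 values come from GenomeStudio per the submitters' processing notes, and no version, background or normalization step is given in the sources used here. Array medians lay at 5.93 log2 and the arrays differed by at most 0.00305 log2 over 99 percentiles, so no further normalization was applied. Probes were named from the platform annotation, updated by gene ID to RefSeq names of GRCh38.p14. Of 24526 probes, 21834 had 1 symbol, 0 several and 2692 none.

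Kept probes numbered 12263, and the brightest per gene gave 9451 genes. Group means of all 8 arrays were fitted with limma 3.58.1 (lmFit and eBayes) in R 4.3.3, with 4 residual and 5.86 prior degrees of freedom. Tests were two-sided. SD is over the 2 arrays of a group, SE is that of the fit. The number of arrays limits the precision. The procedure was tested on simulated data.

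The 10 genes, the gene lists and the tests were chosen with earlier results of these data known. The rule for naming genes took all 10, VRK1, the called members of each list or else its highest and lowest member in each line, and the 3 genes closest to LMNB1 and ZMPSTE24. Between the control lines, the called nucleoporins, kinases and phosphatases, and cell cycle genes are given mostly as counts. A few other list members were named after their values were seen. Alternatives covered the filter, the probe choice, background subtraction, quantile normalization, the prior, a replicate block, single lines and each array left out.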

Additional observations from a re-analysis of the deposited data

How the results depend on the processing

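Among the 9 tested genes, 0 were called with siVRK1 in either line, on the average or in the difference between lines under every alternative run, except that LMNB1 was called on the average without MDA-MB-231 control 2 (0 to 1 over the arrays left out). Between the control lines, 4 of 10 were called, from 2 to 5 over the arrays left out, 2 without HT1080 control 1 or 2. EMD was not called there with no filter (adjusted p = 0.0512) or with background subtracted (adjusted p = 0.0722). LEMD2 was called with the mean of probes (adjusted p = 0.0477). Of 340 tested values of the 10 genes under the alternatives other than leaving out an array, 335 kept their sign and side of the threshold, and 0 changed sign. The 30 values of ZMPSTE24 with no test all kept their sign. They come from the arrays that chose the gene, so this adds no support.

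Counts over all genes moved more. In MDA-MB-231 94 genes were called, 26 with background subtracted, 1 with the 4 arrays of the line fitted alone and 10 to 107 without single arrays. In HT1080 29 were called, 12 with background subtracted, 108 with that line fitted alone and 0 to 39 without single arrays. On the average 240 were called, 126 with background subtracted and 23 to 273 without single arrays. The difference between lines gave 0 to 1 and the control lines 3879 to 5132 without single arrays. The cause was not tested.

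With the replicate block the counts were 297, 66 and 501 in MDA-MB-231, HT1080 and on the average, and 3 for the difference, with 0 of the 9 genes called in each. Between control lines the block gave 6 of 10, with BANF1 (adjusted p = 0.0197) and LEMD2 (adjusted p = 0.0483) added. Replicates of the same number deviated together in MDA-MB-231 (r = 0.485 over genes) and not in HT1080 (r = -0.0485), and the labels give the numbers no meaning, so they were not taken as pairs.

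Leaving out single arrays turned the sign of 18 of 50 values, 0 of which were calls. In MDA-MB-231 the ranges were -0.24 to 0.14 for BANF1, -0.04 to 0.28 for LBR, -0.05 to 0.37 for LEMD3, -0.02 to 0.14 for LMNB2 and -0.50 to 0.06 for TMPO, and in HT1080 -0.15 to 0.08 for LEMD2 and -0.02 to 0.11 for LMNB2. On the average they were -0.12 to 0.07 for BANF1, -0.09 to 0.12 for LEMD3 and -0.01 to 0.07 for LMNA. For the difference between lines they were -0.14 to 0.24 for BANF1, -0.03 to 0.21 for LEMD2, -0.14 to 0.41 for LMNB1, -0.10 to 0.06 for LMNB2, -0.16 to 0.39 for TMPO and -0.01 to 0.20 for ZMPSTE24. Between control lines they were -0.02 to 0.40 for LEMD3 and -0.17 to 0.39 for TMPO.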
